A study of Mus musculus with 6 samples.

Results

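The genes described here are 40 factors that build ribosomes in the nucleolus, including subunits and cofactors of RNA polymerase I. They were listed by symbol from their known roles, with earlier results of these data known, and all 40 were found among the 24421 genes of the deposited count table. All 40 passed the filter on low counts that left 11932 genes for testing, and the lowest count of any of them in any library was 236.

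Ribosome production starts with RNA polymerase I, which transcribes a long ribosomal RNA precursor in the nucleolus. Small nucleolar ribonucleoproteins (snoRNPs) then modify the precursor, and large sets of assembly factors fold, cut and package it into the small and the large ribosomal subunit. In T cells this pathway is known to be turned up when resting cells are activated and grow, in part through the transcription factor MYC.

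The cells were mouse regulatory T cells (Tregs), which restrain immune responses and depend on the transcription factor Foxp3, and came from spleen and lymph nodes. Their RNA was sequenced in 6 libraries. Replicates 1, 3 and 5 form the Srebp2WT group, and replicates 6, 7 and 8 the Srebp2cKO group. The labels give the genotype of the first group as Srebp2WT/WT-Foxp3YFPCRE+/+ and that of the second as Srebp2FL/FL-Foxp3YFPCRE+/-. Both groups therefore carry a Cre recombinase with yellow fluorescent protein at Foxp3, but the Cre allele is +/+ in the one and +/- in the other, so Cre dose and the loss of SREBP2 cannot be told apart. SREBP2 is the transcription factor that activates cholesterol synthesis genes, and the comparison asks what its loss changes in Tregs. The labels give neither a treatment nor an age, and do not state whether each library is a different mouse. P-values here thus reflect the spread between libraries alone, and that spread may be technical.

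Counts totalled 13918321 to 17249898 per library. Srebf2, the gene for SREBP2, stood at 172 to 192 CPM in Srebp2WT and at 10.7 to 13.7 CPM in Srebp2cKO (CPM, counts set relative to library size, here with TMM scaling factors). Foxp3, the defining gene of Tregs, stood at 440 to 461 and at 419 to 466 CPM, and Cd4 and Cd3e were also detected in every library. Of 6 Treg markers, 1 rose, the interleukin-2 receptor gene Il2ra, from 678 to 700 CPM in Srebp2WT to 896 to 941 in Srebp2cKO (log2 fold change 0.41, edgeR adjusted p = 0.0101). Several defining markers of other cells were near 0, with at most 2 counts of Ms4a1, 5 of Lyz2, 14 of Cd8a and 0 of Ncr1 in any library. Other markers were higher. Summed over 5 genes, B cell markers were 45.5 to 63.4 CPM in Srebp2WT and 22.8 to 28.8 in Srebp2cKO, and 2 of the 5 fell. Summed over 5 genes, myeloid markers were 50.6 to 84.9 and 33.1 to 39.2 CPM, and 1 of the 5 fell, while 4 stromal markers summed to 168 to 180 and 216 to 230 CPM, nearly all of it Pecam1, the 1 of the 4 that rose. CD8 T cell markers (2 genes) summed to 7.01 to 7.59 and 8.70 to 10.3 CPM, natural killer cell markers (3 genes, 1 of which fell) to 1.61 to 2.77 and 0.790 to 0.986, and erythroid markers (4 genes, Hbb-bt at 0) to at most 0.193 and 0.5797. Their part in the results below was not tested. In these bulk libraries, fewer cells of a type and less RNA per cell cannot be told apart.

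Of the 40 genes, 5 rose and 0 fell at an edgeR adjusted p under 0.05. These were Npm1 (44.0% higher), Dkc1 (37.1%), Gnl3 (34.6%), Nop58 (30.0%) and Rrs1 (27.6%). That is 12.5% of the 40, against 2.37% of all 11932 tested genes called higher and 4.24% called lower (6.61% in either direction). DESeq2 called 9 of the 40 higher, against 5.25% of all tested genes. The log2 fold change, Srebp2cKO minus Srebp2WT, was above 0 for 32 of the 40 and below 0 for 8, with a median of 0.13, where the median over all tested genes was 0.00. The values ran from -0.19 for Bop1 to 0.53 for Npm1.

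The 3 Srebp2cKO libraries lay above all Srebp2WT libraries for 18 of the 40 genes and below them for 2, and the genotypes overlapped for 20. Over all tested genes, 16% were separated upward and 15.5% downward. At an unadjusted p under 0.05 there were 16 of the 40, all of them higher, against 14.8% of all tested genes that were higher at that level.

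The number of calls depended on the libraries included, both among the 40 genes and over all tested genes. None of the 40 genes was called by edgeR when replicate 1 or 3 of Srebp2WT, or replicate 7 or 8 of Srebp2cKO, was left out, where 0.266%, 0.241%, 0.619% and 0.793% of all tested genes were called higher. Without Srebp2WT replicate 5 there were 7 calls (3.48% of all tested genes higher) and without Srebp2cKO replicate 6 there were 10 (5.8%). The sign was kept in all 6 of these fits by 30 of the 40 genes, the 5 that rose among them.

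**Figure D1:**
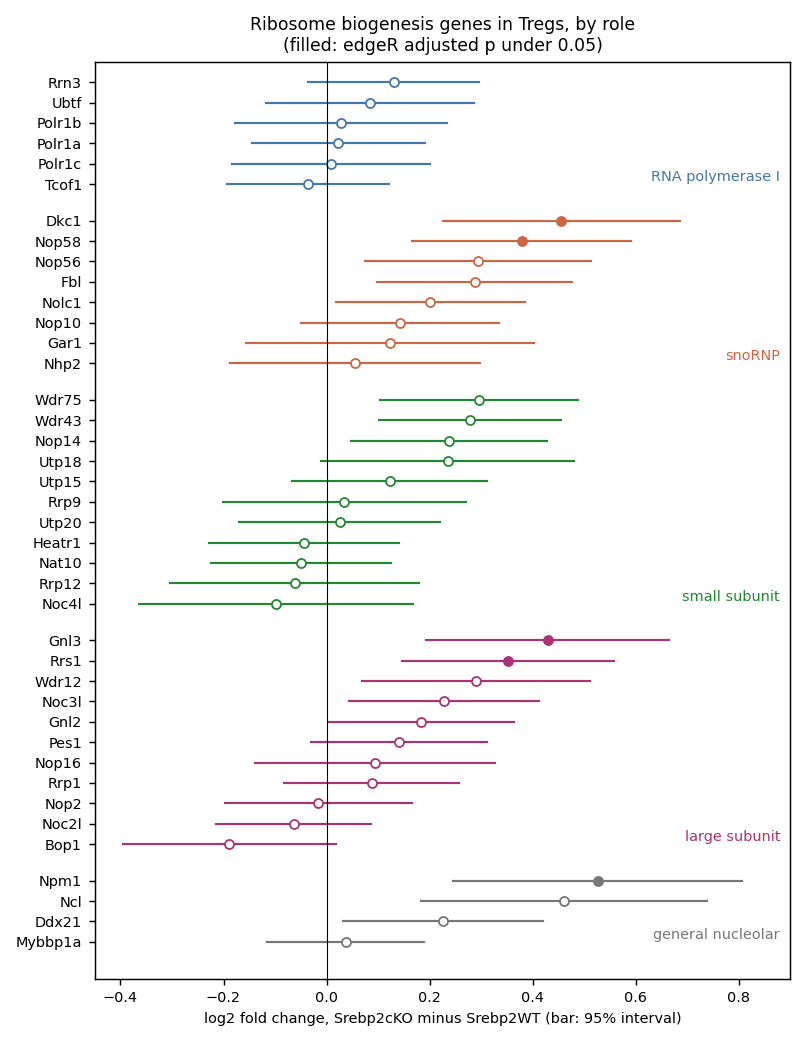
Log2 fold change (Srebp2cKO minus Srebp2WT, horizontal axis) of each of the 40 genes, grouped by role, with bars for the 95% interval of the edgeR fit and filled points for an adjusted p under 0.05. The 5 filled points lie among the snoRNP, large subunit and general nucleolar genes, and the 6 RNA polymerase I genes sit between -0.04 and 0.13.

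Promoter sequence was at hand for 33 of the 40 genes (RefSeq windows on GRCm38.p6, from 250 bases before to 50 after each start of transcription). The letters CACGTG, the E-box that MYC and its partner MAX are known to bind, occurred in the windows of 7 of these 33 genes (21.2%), against 9.17% of the 17224 genes of the table with a window and 7.15% of all 32851 windows. The letters read the same on both strands. The 7 genes were Mybbp1a, Nop2, Pes1, Rrn3, Utp18, Utp20 and Wdr43. None of the 3 genes that rose and have a window is among them. Npm1 and Rrs1, which also rose, had no window and were not searched. CCGGAAGT, an ETS factor motif, occurred in 6 of the 33 genes (18.2%, against 5.65% of genes and 3.89% of windows), and TCACCCCAC, a sterol regulatory element of the kind SREBP proteins bind, in 0 (against 0.644% of genes and 0.551% of windows). CTCGCGAGA, a motif of housekeeping promoters, was found in 0 (1.04% of genes, 0.676% of windows). All were searched on both strands, none of the motifs contains another, and a match is a description of letters, not a binding site. The 250 bases before the start are printed for the 3 genes that rose and have a window, and for Rrn3, which has a pair of E-boxes and did not pass. Capitals mark the E-box.
Nop58, chr1:59684756-59685005, plus strand: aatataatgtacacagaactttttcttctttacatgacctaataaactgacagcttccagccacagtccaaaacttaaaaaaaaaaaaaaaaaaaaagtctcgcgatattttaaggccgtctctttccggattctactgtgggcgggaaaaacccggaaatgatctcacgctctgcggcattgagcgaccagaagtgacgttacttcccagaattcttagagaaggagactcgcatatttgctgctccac
Dkc1, chrX:75095604-75095853, plus strand: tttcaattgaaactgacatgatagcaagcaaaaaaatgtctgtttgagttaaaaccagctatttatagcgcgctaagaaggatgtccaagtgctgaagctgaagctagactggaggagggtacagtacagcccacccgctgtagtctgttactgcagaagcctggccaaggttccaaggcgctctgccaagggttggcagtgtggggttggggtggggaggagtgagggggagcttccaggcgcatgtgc
Gnl3, chr14:31019132-31019381, minus strand: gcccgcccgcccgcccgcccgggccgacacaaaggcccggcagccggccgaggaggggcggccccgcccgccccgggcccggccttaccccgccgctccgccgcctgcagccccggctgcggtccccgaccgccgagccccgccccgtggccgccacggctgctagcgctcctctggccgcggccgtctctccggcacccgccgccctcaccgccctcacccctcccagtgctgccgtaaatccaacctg
Rrn3, chr16:13780449-13780698, plus strand: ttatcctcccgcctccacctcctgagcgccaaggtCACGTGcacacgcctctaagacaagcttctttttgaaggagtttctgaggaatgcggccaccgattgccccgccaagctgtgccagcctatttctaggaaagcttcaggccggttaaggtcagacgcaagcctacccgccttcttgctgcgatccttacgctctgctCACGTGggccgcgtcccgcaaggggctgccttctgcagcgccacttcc
The E-boxes of Rrn3 begin 215 and 48 bases before the start. The stretches differ widely in base composition, with 41.2% G and C before Nop58, 52% before Dkc1, 59.6% before Rrn3 and 81.6% before Gnl3.

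The RNA polymerase I genes among the 40 showed no change that passed. None of these 6 genes, subunits and cofactors together, was called by edgeR (against 6.61% of all tested genes in either direction) or by DESeq2. An unadjusted p under 0.05 was found for 0 of them, against 29.1% of all tested genes in either direction. Polr1a encodes the largest catalytic subunit and stood at 92.9, 96.4 and 85.6 CPM in Srebp2WT replicates 1, 3 and 5 and at 92.4, 90.8 and 96.0 in Srebp2cKO replicates 6, 7 and 8. The genotypes overlapped fully, with a log2 fold change of 0.02 (95% interval -0.15 to 0.19, adjusted p = 0.867). Polr1b, which completes the active site, stood at 39.7, 44.9 and 44.7 CPM and at 42.9, 41.1 and 47.7 (log2 fold change 0.03, 95% interval -0.18 to 0.23, adjusted p = 0.866). Polr1c, a subunit shared with RNA polymerase III, had a log2 fold change of 0.01 (95% interval -0.18 to 0.20).

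The 3 cofactors of RNA polymerase I among the 40, Ubtf, Rrn3 and Tcof1, were not called either. Ubtf encodes UBF, which binds and opens the ribosomal RNA genes. It stood at 249, 261 and 278 CPM in Srebp2WT and at 256, 314 and 265 in Srebp2cKO, where only replicate 7 lay above all Srebp2WT libraries (log2 fold change 0.08, 95% interval -0.12 to 0.29, adjusted p = 0.566). Rrn3 encodes TIF-IA, which brings the polymerase to the promoter, and stood at 67.8, 73.8 and 70.7 CPM and at 75.8, 80.4 and 76.1. Its genotypes did not overlap, but the difference was small (log2 fold change 0.13, 95% interval -0.04 to 0.30, adjusted p = 0.270). Tcof1, for the UBF partner treacle, ranged from 184 to 195 CPM in Srebp2WT and from 175 to 191 in Srebp2cKO (log2 fold change -0.04, adjusted p = 0.769).

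Genes of the snoRNPs, which methylate the ribosomal RNA (box C/D particles) or isomerise its uridines (box H/ACA particles), were all above 0. Of 8 genes, 2 rose (25%, against 2.37% of all tested genes called higher). An unadjusted p under 0.05 was found for 5 (62.5%, against 14.8% of all tested genes that were higher at that level). All Srebp2cKO libraries lay above all Srebp2WT libraries for 6 (75%, against 16% of all tested genes). The median log2 fold change was 0.24. Dkc1 (chromosome X, 75095854 to 75109777, GRCm38) encodes dyskerin, the pseudouridine synthase of the box H/ACA particle. It stood at 60.2, 60.9 and 70.2 CPM in Srebp2WT and at 77.0, 98.2 and 86.9 in Srebp2cKO. The lowest Srebp2cKO library was above the highest Srebp2WT library, and the log2 fold change was 0.46 (SE 0.10, edgeR adjusted p = 0.0317).

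Nop58 (chromosome 1, 59684971 to 59719044) encodes a core protein of the box C/D particle. It stood at 85.5, 89.3 and 102 CPM in Srebp2WT and at 107, 130 and 122 in Srebp2cKO, a log2 fold change of 0.38 (SE 0.10, edgeR adjusted p = 0.0438). Again the genotypes did not overlap, with Srebp2WT replicate 5 and Srebp2cKO replicate 6 next to each other. Its partner Nop56 stood at 106, 118 and 118 CPM and at 120, 153 and 147 (log2 fold change 0.29, adjusted p = 0.0915). Fbl, the methyltransferase fibrillarin of the same particle, stood at 63.1, 67.6 and 74.7 CPM and at 79.3, 85.7 and 85.5 (log2 fold change 0.29, adjusted p = 0.0682). Neither passed, although both were separated in all libraries, and DESeq2 called Fbl (adjusted p = 0.0427).

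Of the remaining box H/ACA proteins, Nop10 had a log2 fold change of 0.14 (95% interval -0.05 to 0.33), Gar1 of 0.12 (-0.16 to 0.40) and Nhp2 of 0.06 (-0.19 to 0.30). None of the 3 passed, and only Nop10 was separated in all libraries. Nolc1, a nucleolar chaperone of both kinds of snoRNP, stood at 61.1 to 71.2 CPM in Srebp2WT and 72.6 to 76.6 in Srebp2cKO (log2 fold change 0.20, adjusted p = 0.141).

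Members of the small subunit processome, the particle that assembles on the nascent precursor, held no call. None of 11 passed in edgeR, where 2.37% of all tested genes were called higher. DESeq2 called 2, Wdr43 and Wdr75, against 5.25% of all tested genes called higher. An unadjusted p under 0.05 was found for 3 (27.3%, against 14.8% of all tested genes that were higher at that level). The log2 fold change was above 0 for 7 and below 0 for 4, with a median of 0.03. The highest were Wdr75 (log2 fold change 0.30, adjusted p = 0.0665) and Wdr43 (0.28, adjusted p = 0.0617), which belong to the subcomplex that joins transcription to processing. Wdr43 stood at 110, 106 and 124 CPM in Srebp2WT and at 132, 141 and 139 in Srebp2cKO, and Wdr75 at 43.5, 46.5 and 50.4 and at 54.1, 58.6 and 59.5. Both were separated between the genotypes.

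In the same subcomplex, Utp15 had a log2 fold change of 0.12 and Heatr1 of -0.04 (95% interval -0.23 to 0.14), with Heatr1 at 127 to 146 CPM in Srebp2WT and 124 to 142 in Srebp2cKO. Elsewhere in the processome, Utp18 (0.23, 95% interval -0.01 to 0.48) overlapped between genotypes, because Srebp2cKO replicate 6 at 45.9 CPM lay inside the Srebp2WT range of 42.2 to 49.3. Nop14 (0.24, adjusted p = 0.107) was separated at 52.2 to 56.1 against 60.1 to 70.1 CPM. Utp20, a scaffold protein, Rrp9, a protein of the U3 snoRNP, Nat10, the acetyltransferase of small subunit RNA, Noc4l and Rrp12, an export factor, had log2 fold changes between -0.10 and 0.03.

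Large subunit assembly factors held 2 of the 5 genes that rose. Of 11, 2 rose (18.2%, against 2.37% of all tested genes called higher). An unadjusted p under 0.05 was found for 5 (45.5%, against 14.8% of all tested genes that were higher at that level). The log2 fold change was above 0 for 8 and below 0 for 3, with a median of 0.14. Gnl3 (chromosome 14, 31012433 to 31019152) encodes nucleostemin, a nucleolar GTPase known from stem cells and activated lymphocytes. It stood at 44.9, 44.1 and 56.2 CPM in Srebp2WT and at 61.0, 69.0 and 65.5 in Srebp2cKO (log2 fold change 0.43, SE 0.11, edgeR adjusted p = 0.0415). The genotypes did not overlap, and Srebp2WT replicate 5 was the nearest to Srebp2cKO.

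Rrs1 (chromosome 1, 9545408 to 9547455) brings the 5S RNA particle into the large subunit precursor. It stood at 21.9, 23.6 and 21.7 CPM in Srebp2WT and at 29.7, 27.9 and 28.2 in Srebp2cKO. Its libraries were ordered unlike those of the other 4 genes that rose, with Srebp2WT replicate 5 the lowest and Srebp2cKO replicate 6 the highest, and the spread within each genotype was narrow (22.4 ± 1.01 and 28.6 ± 0.986 CPM, mean ± SD, n = 3). Its log2 fold change was 0.35 (SE 0.09) and its edgeR adjusted p of 0.0498 was just under the threshold. In limma-voom (adjusted p = 0.0509) and with total counts alone (0.0637) it did not pass. It was called in none of the 6 fits that left out 1 library, where the adjusted p ran from 0.0643 to 0.179 and the log2 fold change stayed above 0.

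None of the 3 genes of the PeBoW complex, which processes large subunit RNA, passed. Wdr12 had a log2 fold change of 0.29 (95% interval 0.07 to 0.51, adjusted p = 0.0979), Pes1 of 0.14 (-0.03 to 0.31) and Bop1 of -0.19 (-0.40 to 0.02). Wdr12 stood at 21.1 to 24.7 CPM in Srebp2WT and 26.5 to 28.1 in Srebp2cKO, whereas Bop1 stood at 44.8 to 49.0 and 37.4 to 44.4, with all Srebp2cKO libraries below. Whether these 3 genes differ from one another was not tested.

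Noc3l, an early assembly factor, had a log2 fold change of 0.23 and its partner Noc2l one of -0.06. The GTPase Gnl2 had 0.18, and Nop16 and Rrp1 had 0.09 each. Nop2, the methyltransferase of large subunit RNA, had -0.02 (95% interval -0.20 to 0.16). None of these 6 passed. Noc2l overlaps the gene Samd11 on the opposite strand over 20.86% of its exon bases, and no source used here gives the strand setting of the counting, which leaves its count uncertain.

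Of the 4 general nucleolar genes, 1 rose, Npm1 (25%, against 2.37% of all tested genes called higher). Npm1 (chromosome 11, 33152287 to 33163206) encodes nucleophosmin, a chaperone of ribosome assembly. It stood at 427, 456 and 542 CPM in Srebp2WT and at 572, 799 and 681 in Srebp2cKO, a log2 fold change of 0.53 (SE 0.13, 95% interval 0.25 to 0.81, edgeR adjusted p = 0.0373). The genotypes did not overlap, and Srebp2cKO replicate 7 was the highest. Ncl encodes nucleolin, which binds the nascent precursor RNA. It stood at 579, 594 and 791 CPM and at 802, 981 and 921, so that Srebp2WT replicate 5 came close to Srebp2cKO replicate 6. Its log2 fold change of 0.46 was as large as that of Dkc1, but with a wider error (SE 0.13) it did not pass (edgeR adjusted p = 0.0539). Ncl did pass in DESeq2 (adjusted p = 0.00488), in limma-voom (0.0478) and with no filter on low counts (0.0197).

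Per kilobase of coding sequence, Npm1 (542 CPM per kb) and Ncl (309 CPM per kb) were the most abundant of the 40 in Srebp2WT, and Utp20 (10.3) and Rrp12 (7.39) the least. This order depends on the length used, because transcripts also hold untranslated bases (for Ncl, 2121 of 8202 bases are coding). The helicase Ddx21 stood at 250 to 284 CPM in Srebp2WT and 280 to 337 in Srebp2cKO (log2 fold change 0.23, adjusted p = 0.125). Mybbp1a, a MYB-binding repressor of ribosomal RNA synthesis, had a log2 fold change of 0.04. Counts of Npm1 carry a further limit, because 40.91% of the 50-base words of its transcript also occur in transcripts of 11 other annotated genes. The same holds for Fbl (73.0%, 3 other genes), Nop56 (37.58%, 6 genes), Pes1 (24.1%, 3 genes), Noc2l (20.1%, 35 genes) and Wdr12 (11.82%, 3 genes). How such reads were counted is given in no source used here.

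**Figure D2:**
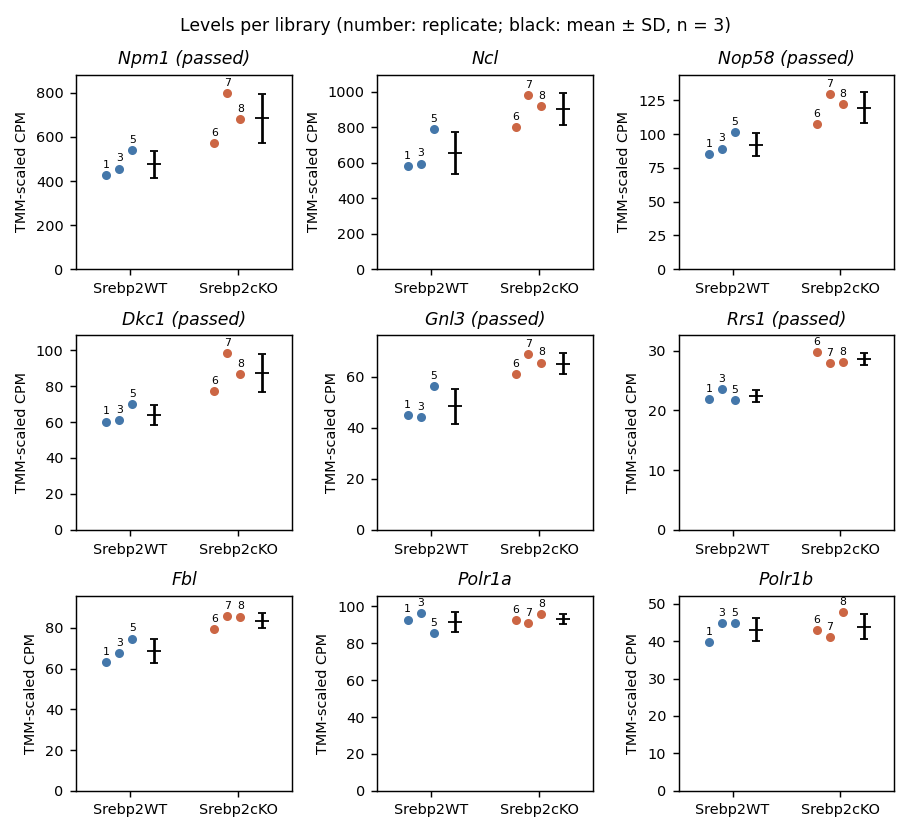
Levels in TMM-scaled CPM (vertical axes start at 0) of 9 genes in the 3 Srebp2WT (blue) and 3 Srebp2cKO (orange) libraries, with replicate numbers at the points and the mean ± SD in black. Srebp2WT replicate 5 lies nearest to Srebp2cKO for Npm1, Ncl, Nop58, Dkc1, Gnl3 and Fbl, whereas Polr1a and Polr1b overlap between the genotypes.

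The libraries of a genotype differed among themselves along the same genes. The 5 genes that rose had median levels of -0.10, -0.05 and 0.15 in Srebp2WT replicates 1, 3 and 5 and of 0.28, 0.52 and 0.44 in Srebp2cKO replicates 6, 7 and 8 (log2 CPM relative to the Srebp2WT mean of each gene). Over the 8 snoRNP genes the medians were -0.10, 0.00 and 0.13 against 0.14, 0.30 and 0.28, so replicate 5 of Srebp2WT and replicate 6 of Srebp2cKO were nearly level. Over the 4 general nucleolar genes they were -0.09, -0.07 and 0.15 against 0.18, 0.48 and 0.37. Over the 6 RNA polymerase I genes they were -0.05, 0.06 and 0.02 against 0.02, -0.03 and 0.06, which overlapped completely.

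**Figure D3:**
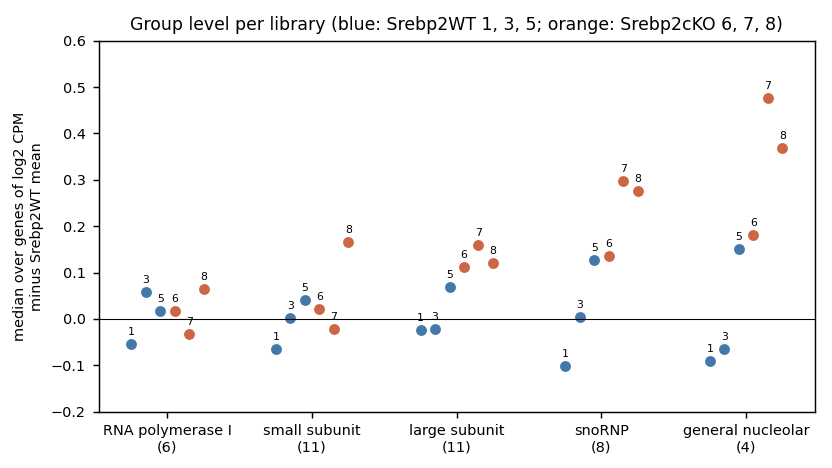
Median over the genes of each role group of log2 CPM relative to the Srebp2WT mean (vertical axis), for each library, with the number of genes in brackets and replicate numbers at the points. Srebp2cKO replicates 7 and 8 lie highest for the snoRNP and general nucleolar genes, replicate 6 lies close to Srebp2WT replicate 5, and the RNA polymerase I genes show no separation.

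The differences followed the GC content of the transcripts. Across the 40 genes, log2 fold change and GC content had a Pearson r of -0.68 (Spearman -0.67), given as a description because genes share libraries and are not independent replicates. Across 11459 tested genes with a GC value the Pearson r was -0.33 and the Spearman coefficient -0.51, so a negative relation is not particular to these genes. The 10 genes with the lowest GC content (41.03% to 44.84%) held 4 of the 5 that rose, were separated upward in 9 of 10 cases and had a median log2 fold change of 0.34. The 10 with the highest (54.95% to 59.77%) held none, 1 of 10 was separated upward, and the median was -0.03. Over all tested genes, of any GC content, 16% were separated upward and 2.37% were called higher. Fbl was the 1 gene of high GC content that was separated upward, and Rrs1, at 54.25%, was the 1 gene that rose outside the 10 of lowest GC content.

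Libraries differed in this respect, with a slope of log2 CPM on GC content of -0.33, -0.31 and -0.46 log2 units per 10 points for replicates 1, 3 and 5 of Srebp2WT and -0.46, -0.71 and -0.59 for replicates 6, 7 and 8 of Srebp2cKO. The part of GC content in the calls beyond the correction below was not tested. With the GC trend removed from each library, 4 of the 40 genes were called higher and 0 lower, against 1.84% of all tested genes called higher. These were Rrs1 (log2 fold change 0.44, adjusted p = 0.0124), Fbl (0.43, adjusted p = 0.0325), Dkc1 (0.30, adjusted p = 0.0350) and Npm1 (0.34, adjusted p = 0.0449). Gnl3 (0.31, adjusted p = 0.0537) and Nop58 (0.15, adjusted p = 0.170) lost their calls. The median log2 fold change of the 40 genes after this step was 0.13, with 37 of 40 above 0, and the Pearson r with GC content was 0.08. The 6 RNA polymerase I genes again held no call, with a median of 0.05, and the snoRNP genes had a median of 0.27.

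**Figure D4:**
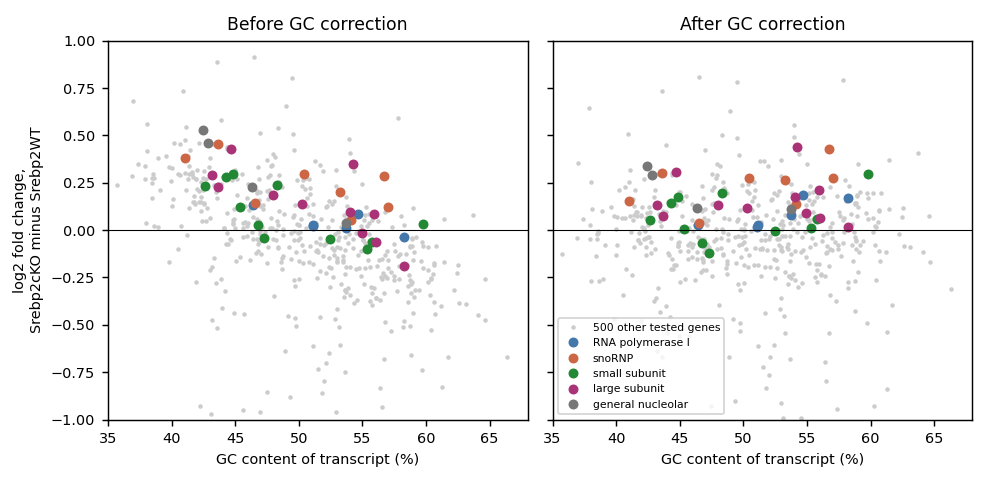
Log2 fold change (vertical axis) against GC content of the transcript (percent, horizontal axis) before and after removal of the GC trend from each library, for the 40 genes in the colours of their role and 500 other tested genes in grey, of which 19 before and 17 after lie outside the range drawn. The 40 genes slope downward on the left (Pearson r -0.68) and lie level on the right (0.08), with most of them above 0.

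Beyond the 40 genes, the wider pathway held further calls. Of 109 further ribosome biogenesis genes tested, 7 rose and 0 fell (6.42%, against 2.37% of all tested genes called higher), 76 were above 0 and the median log2 fold change was 0.11. Taf1d, a subunit of the promoter selectivity factor of RNA polymerase I, was the 1 of 15 further polymerase I genes that rose, from 57.1 ± 4.81 to 83.2 ± 14.4 CPM (mean ± SD, n = 3, log2 fold change 0.54, edgeR adjusted p = 0.0298). In the small subunit list of 37, Mphosph10 of the processome (0.51) and Ltv1, a late factor (0.40), rose. In the large subunit list of 36, Nsa2 (0.45) and Brix1 (0.51) rose. Naf1, which assembles box H/ACA particles together with dyskerin, rose by a log2 fold change of 0.43 among 9 snoRNP assembly genes, from 17.7, 16.7 and 19.6 to 24.2, 24.3 and 24.4 CPM. Exosc9, of the RNA exosome that trims precursors, rose (0.39) among 12. With the GC trend removed, Taf1d (0.32) and Naf1 (0.38) were the 2 of the 109 that passed, which is 1.83%, against 1.84% of all tested genes called higher in that fit. As for the 40 genes, no call was made among the 109 in the 4 fits named above. Without Srebp2WT replicate 5, 11 were called higher (3.48% of all tested genes). Without Srebp2cKO replicate 6, 15 were called higher (5.8% of all tested genes) and 1 lower.

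Upstream, Myc stood at 113, 115 and 114 CPM in Srebp2WT and at 144, 147 and 120 in Srebp2cKO. All Srebp2cKO libraries were higher, but the difference did not pass (log2 fold change 0.26, SE 0.09, edgeR adjusted p = 0.0906). With the GC trend removed it did (0.46, adjusted p = 0.0202). Mxd4, a repressor that competes with MYC for MAX, stood at 82.4 to 95.9 CPM and at 64.1 to 74.9, with all Srebp2cKO libraries lower (log2 fold change -0.34, adjusted p = 0.0511). None of the 8 tested genes of this network was called by edgeR, and 4 had an unadjusted p under 0.05 in either direction (50%, against 29.1% of all tested genes). DESeq2 called 1 of the 8, where it called 1404 of all 11932 tested genes in either direction. Among 22 genes of RNA polymerase III, which makes the 5S and transfer RNAs, none was called in edgeR or DESeq2, 7 had an unadjusted p under 0.05 in either direction (31.8%, against 29.1% of all tested genes) and the median log2 fold change was 0.03. The lowest p belonged to Polr3d (0.34, adjusted p = 0.0636), followed by Polr3f (0.26, adjusted p = 0.0848), and Polr3d passed with the GC trend removed (0.42, adjusted p = 0.0302).

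Among transcripts of cytosolic ribosomal proteins, 26 of 82 were called higher (31.7%, against 2.37% of all tested genes) and 1 lower, with a median log2 fold change of 0.27. Host genes of small nucleolar RNAs had 3 of 11 called higher (27.3%, against the same 2.37%) and 0 lower (median 0.35), namely Gas5 (0.66), Snhg8 (0.59) and Snhg1 (0.46), of which Gas5 and Snhg8 also passed with the GC trend removed. Of the 96 small nucleolar and Cajal body RNAs tested, 1 rose and 1 fell (1.04% each, against 2.37% and 4.24% of all tested genes) and the median was 0.08. The one that rose was Snora24 (log2 fold change 0.87, adjusted p = 0.0483) and the one that fell was Scarna6 (-1.45, adjusted p = 0.0450).

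Several of the 40 genes carry small nucleolar RNA genes within their bounds, on the same strand. Not all of these lie in introns alone. Annotated exons of Nop56 share 72 bases with Snord57, and those of Gnl3 share 76 with Snord19 and 80 with Snord69. How reads in shared bases were counted is given in no source used here. Of 19 such annotated genes, 11 were in the table, 9 were tested and 0 were called, and none held more than 98 counts in a library. Snord57 and Snord110, inside Nop56, had log2 fold changes of 0.81 (SE 0.36) and 0.81 (SE 0.44), while Snord19 and Snord69, inside Gnl3, had -0.10 (SE 0.33) and -0.49 (SE 0.34). Snord69 lay lower in all Srebp2cKO libraries than in all Srebp2WT libraries, and the other 3 overlapped.

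Rn45s, the ribosomal RNA precursor made by RNA polymerase I, was named after its values were seen. It took 9.63% to 11.9% of counts in Srebp2WT and 6.198% to 11.2% in Srebp2cKO, where replicate 7 was the lowest (log2 fold change -0.32, SE 0.19, adjusted p = 0.292). Ribosomal RNA was depleted before sequencing, so these counts are what depletion left and do not measure transcription of the precursor. Rmrp, the RNA of the enzyme that cuts the precursor, stood at 463, 590 and 561 CPM in Srebp2WT and at 397, 140 and 324 in Srebp2cKO. All Srebp2cKO libraries were lower, but they spread widely (log2 fold change -0.91, SE 0.29, adjusted p = 0.0786). Terc, the H/ACA RNA of telomerase that dyskerin binds, had a log2 fold change of -0.61 (adjusted p = 0.180).

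Of 10 proliferation genes, 1 fell (10%, against 4.24% of all tested genes) and 0 rose, 9 were below 0 and the median log2 fold change was -0.37. Tyms, thymidylate synthase, fell by 0.60 on the log2 scale (adjusted p = 0.0332). Mki67, a marker of dividing cells, stood at 85.8, 40.004 and 80.3 CPM in Srebp2WT and at 36.1, 29.9 and 54.0 in Srebp2cKO, which overlapped, and did not pass (adjusted p = 0.102). Srebp2WT replicate 3 was low for Mki67 and near replicate 1 for Npm1, Ncl, Dkc1 and Gnl3. That is 1 library, and whether proliferation bears on these genes was not tested.

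**Figure D5:**
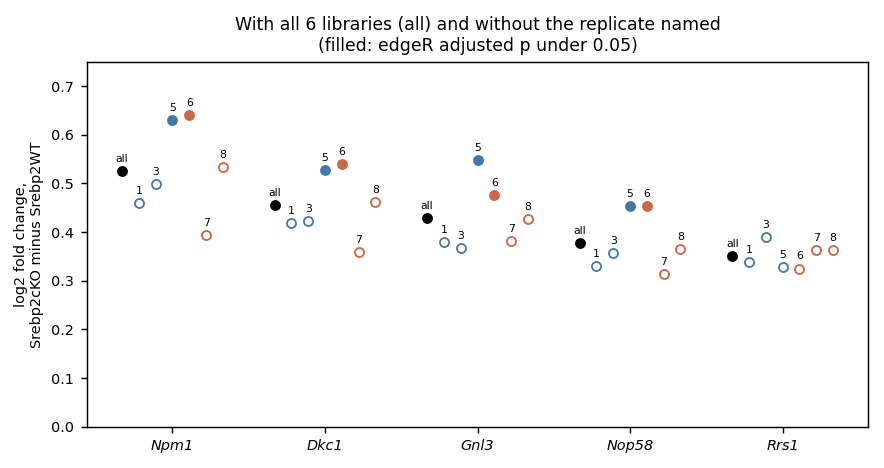
Log2 fold change (vertical axis) of the 5 genes that rose, with all 6 libraries (black) and with each library left out (number: replicate left out, blue for Srebp2WT, orange for Srebp2cKO), filled where the edgeR adjusted p is under 0.05. All values stay above 0, and with 1 library left out the filled points are those without Srebp2WT replicate 5 or Srebp2cKO replicate 6, for Npm1, Dkc1, Gnl3 and Nop58 but not Rrs1.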

How the data were processed

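Per the labels' protocols, libraries were prepared from total RNA (RNeasy columns) by KAPA HyperPrep chemistry after RiboErase removal of ribosomal RNA. Raw counts per gene symbol were deposited by the authors, 1 column for each of 6 libraries. HISAT2 2.2.1, Cell Ranger and mm10 are named in the submitters' processing notes without a role. No counting tool, annotation or strand setting was given in the sources used here. Of the 24421 genes, 8113 had 0 counts in every library. Columns were matched to samples by title, and every within-genotype pair differed by more than sampling noise (chi-square 6.98 to 36.9 per degree of freedom), which does not show that they are separate animals.

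Genes were kept by filterByExpr (11932), scaled by TMM and compared by edgeR's quasi-likelihood F test (edgeR 4.0.16, R 4.3.3), Srebp2cKO minus Srebp2WT, all 6 libraries, no covariate. P-values were adjusted by Benjamini-Hochberg over all tested genes and called under 0.05. The SE is the absolute log2 fold change divided by the square root of F. The fits were tested on simulated data. Alternatives were RLE scaling, total counts alone, DESeq2 1.42.0, limma-voom (limma 3.58.1), other filters, a false discovery rate of 0.1, each library left out, and a loess trend (span 0.3) on transcript GC removed as offsets. Transcripts (longest coding sequence), positions and overlaps came from GENCODE M21 on GRCm38, which gave GC for 96.0% of tested genes. A GC correction from each gene's longest transcript was chosen after seeing the data. Marker sums are CPM of total counts, and the values of 1 marker gene are not reported here. The letters of the sterol motif were shortened after a longer form had been searched, which also matched 0 of the genes.

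The genes and lists were chosen with earlier results of these data known. All 40 genes could be named. Of each other list, those that passed, up to 6 by smallest p, and otherwise the 2 with the smallest p, with Srebf2, Foxp3 and Myc in any case, were the named genes.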

Additional observations from a re-analysis of the deposited data

How the results depend on the processing

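No paired analysis was possible because the genotypes share no replicate number. The count of the 40 genes called higher was 5, and was 2 with total counts alone (Dkc1 and Npm1), 9 with DESeq2 and 11 at a false discovery rate of 0.1, and ran from 0 to 10 with 1 library left out. No setting called any of the 40 lower. The 109 further genes gave 7 higher, against 3 with total counts alone, 13 with DESeq2, 19 at a false discovery rate of 0.1, 2 with the GC correction, 3 with the correction from the longest transcript, and 0 to 15 with 1 library left out. Among the 109, 0 were called lower, against 1 with the correction from the longest transcript and 0 to 1 with 1 library left out. Of all tested genes, 2.37% were called higher. That share was 1.54% with total counts alone, 5.25% with DESeq2 and 7.22% at a false discovery rate of 0.1. It was 1.84% with the GC correction, 1.94% with the correction from the longest transcript, and 0.241% to 5.8% with 1 library left out. In either direction, 789 of all tested genes were called, against 1404 with DESeq2, 1205 with no filter and 1893 at a false discovery rate of 0.1. There were 167 to 1487 with 1 library left out. With total counts alone, 24.4% of all calls were higher in place of 35.9%. The cause was not tested. The median log2 fold change of the 40 genes stayed between 0.09 and 0.15 over all 15 alternatives. One of these, the false discovery rate of 0.1, keeps the main fit and could not move the median.

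Of 600 values of single genes under the alternatives, 33 changed sign, in 14 genes whose main values were within 0.19 of 0, none of them called. The 600 include those at a false discovery rate of 0.1, which keeps the main fit, so these could not change sign. With total counts alone these were Polr1a (-0.011), Polr1b (-0.0046), Polr1c (-0.025) and Utp20 (-0.0080). With the GC correction they were Tcof1 (0.17), Utp20 (-0.070), Noc4l (0.013), Rrp12 (0.058), Bop1 (0.017), Nop2 (0.091) and Noc2l (0.063), and with the correction from the longest transcript Tcof1 (0.19), Utp20 (-0.048), Noc4l (0.034), Rrp12 (0.080), Bop1 (0.033), Nop2 (0.11) and Noc2l (0.085). With 1 library left out, the log2 fold change spanned -0.026 to 0.061 for Polr1a, -0.037 to 0.069 for Polr1b, -0.017 to 0.035 for Polr1c, -0.017 to 0.14 for Ubtf, -0.0092 to 0.12 for Nhp2, -0.050 to 0.086 for Utp20, -0.10 to 0.0075 for Heatr1, -0.021 to 0.12 for Rrp9, -0.13 to 0.034 for Rrp12 and -0.047 to 0.024 for Nop2.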
